A study of Rattus norvegicus with 2 samples.

Results

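Cathepsins B, D, K, L, S and Z and their inhibitor cystatin C, encoded by Ctsb, Ctsd, Ctsk, Ctsl, Ctss, Ctsz and Cst3, were followed through the cells of rat cartilage. The 7 genes were chosen by symbol from the 18147 genes listed for both libraries of the series, and they were measured in 5 cell types that were picked by other marker genes. Cartilage of Lewis rats, a strain prone to experimental arthritis, had been dissociated with TrypLE and profiled with single-cell RNA sequencing, droplet-based by its labels. The CIA (collagen-induced arthritis) library came from rats that received type II collagen together with Complete Freund's Adjuvant, collected on day 14. The control library came from rats whose treatment was none, which the design text calls sham. The sources used here do not give the age, sex, joint or number of animals behind a library. No collection day was listed for the control library. There was 1 library per group, so no difference was tested or has a replicate check, and each comparison is between these libraries.

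Cathepsins B, K, L, S and Z are cysteine proteases of the lysosome, and cathepsin D is an aspartic protease of the same compartment. Cystatin C is a secreted protein that blocks cysteine cathepsins by binding their active site, and it does not inhibit cathepsin D. In joints, osteoclasts secrete cathepsin K onto bone to cleave type I collagen, macrophages use cathepsin S to process antigen, and chondrocytes, fibroblasts and synovial lining cells hold cathepsins B and L.

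The CIA matrix held 8622 barcodes and 105752977 UMIs (unique molecular identifiers, each marking 1 captured RNA molecule), and the control matrix held 5456 barcodes and 76927821 UMIs. The median was 10541 UMIs per barcode in the CIA library and 11873 in the control library, and 52 barcodes occurred in both. After filtering, 8409 CIA cells and 5349 control cells remained. Osteoclasts were 70 CIA and 18 control cells, macrophages 2471 and 892, fibroblasts 3170 and 2149, lining cells 536 and 197, and chondrocytes 24 and 302. A gate required several markers to be on in the same cell, and no member was a gate gene. Each gate held its own markers. The 9 osteoclast markers summed to 29709 CPM (counts per 1e+06 UMIs of the summed cells) in CIA and 20301 CPM in control osteoclasts. The 12 macrophage markers summed to only 5834 CPM in CIA and 5592 CPM in control macrophages, where 14 fibroblast markers summed to 3054 and 3534 CPM. The 15 chondrocyte markers summed to 39852 CPM in CIA chondrocytes and 54597 CPM in control chondrocytes, with none at 0. Chondrocytes also held 6 osteoblast markers at a sum of 4210 CPM in the CIA and 5254 CPM in the control library. The gates drew partly on different cells in each library. Lining cells lay mostly in Leiden cluster 2 in the CIA library (78.4%) and in cluster 14 in the control library (61.9%). The largest macrophage share was in cluster 4 in the CIA library (47.0%) and in cluster 5 in the control library (71.6%), and the largest fibroblast share in cluster 0 (43.8%) and cluster 1 (37.4%). Although the series title names chondrocytes, they made up 0.285% of CIA cells (95% interval 0.183 to 0.424%) and 5.65% of control cells (5.04 to 6.30%).

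The 7 genes peaked in different cell types. Ctsk and Ctsz were highest in osteoclasts, Ctsb, Ctsd and Ctss were highest in macrophages, Ctsl was highest in lining cells, and Cst3 was highest in chondrocytes. Each of these first places was held in both libraries by the summed levels, with counting intervals that did not overlap the next type. The 95% intervals hold only the error of counting, and the variation of cells and animals comes on top of it. Levels of different genes also differ in how well their 3' ends were captured, so a level is set against the same gene in another type.

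**Figure D1:**
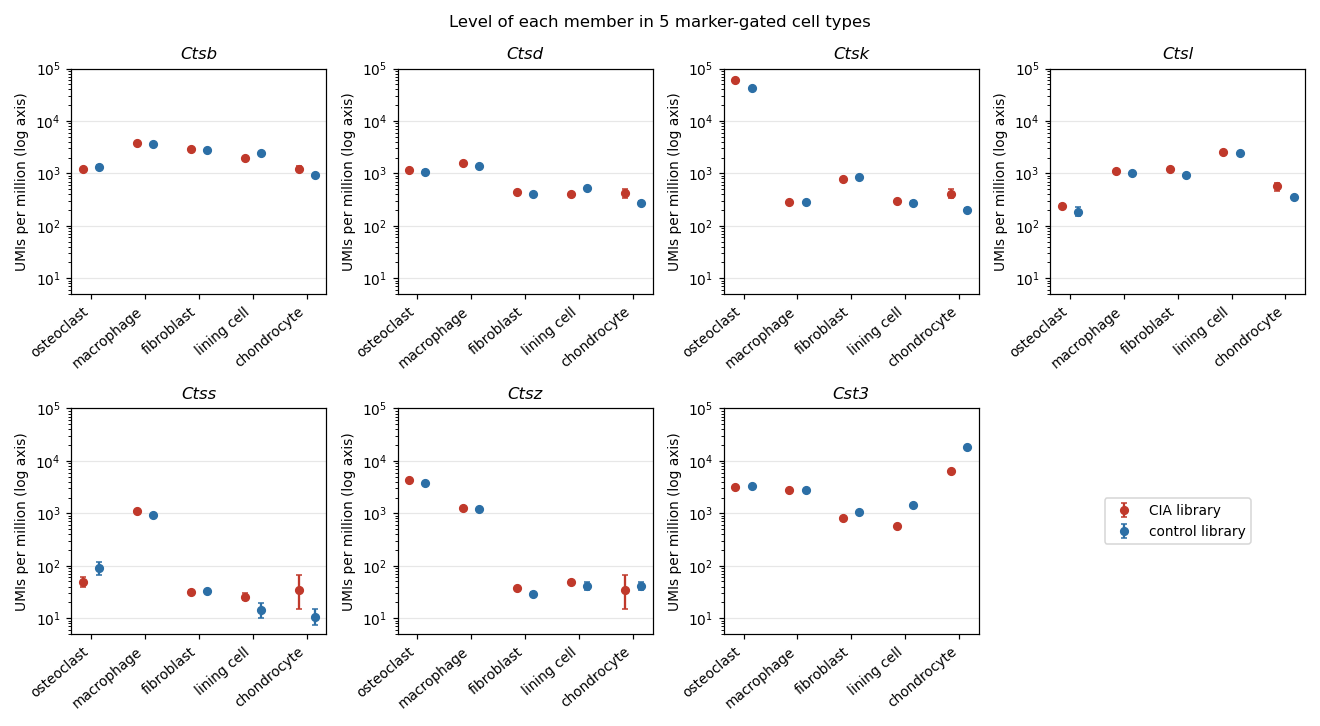
Level of each member in CPM (log axis) in the 5 gated cell types, with CIA (red) left of control (blue) and bars for exact Poisson 95% intervals. Ctsk reached 60571 CPM in CIA osteoclasts and 42748 CPM in control osteoclasts, while Cst3 reached 6368 CPM in CIA chondrocytes and 18378 CPM in control chondrocytes.

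Promoter windows show which sequences stand at the start of genes with such different patterns. RefSeq windows of 300 bases were matched by symbol for 6 of the 7 members on GRCr8, a later build than the one the counts used. Those of the osteoclast gene, the macrophage gene and the aspartic protease are printed, 5′ to 3′ on the gene's strand, with some motif letters in capitals. The searched motifs, on both strands, were CACGTG, the core bound by the lysosomal regulators TFEB, TFE3 and MITF, GAGGAA, the core bound by the myeloid factor PU.1, a pair of GAAA set 2 bases apart, bound by interferon regulatory factors, TGANTCA, bound by AP-1, and GGGCGG, bound by SP1. Capitals mark the first 3 of these. The Ctsk window is chr2:185747298-185747597 on the plus strand, the Ctss window chr2:185775146-185775445 on the plus strand, and the Ctsd window chr1:206968772-206969071 on the minus strand.
Ctsk: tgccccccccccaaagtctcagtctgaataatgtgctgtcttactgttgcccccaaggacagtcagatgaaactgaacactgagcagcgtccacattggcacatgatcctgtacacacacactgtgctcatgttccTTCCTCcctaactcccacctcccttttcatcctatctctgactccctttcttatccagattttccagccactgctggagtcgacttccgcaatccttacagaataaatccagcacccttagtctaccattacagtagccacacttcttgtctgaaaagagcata
Ctss: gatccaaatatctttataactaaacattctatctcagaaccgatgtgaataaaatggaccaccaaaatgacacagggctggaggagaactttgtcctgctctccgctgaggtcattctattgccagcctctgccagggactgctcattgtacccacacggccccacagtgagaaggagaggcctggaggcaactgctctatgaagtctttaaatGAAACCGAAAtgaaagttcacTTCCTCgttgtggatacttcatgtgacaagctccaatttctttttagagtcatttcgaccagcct
Ctsd: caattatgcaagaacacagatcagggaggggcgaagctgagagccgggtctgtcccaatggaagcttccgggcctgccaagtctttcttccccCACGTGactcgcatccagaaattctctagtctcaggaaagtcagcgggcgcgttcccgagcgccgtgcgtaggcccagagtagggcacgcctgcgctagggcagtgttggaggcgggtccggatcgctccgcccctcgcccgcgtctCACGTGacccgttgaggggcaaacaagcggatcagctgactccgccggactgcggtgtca
The Ctsd window held 2 copies of CACGTG, which occurred in 6.42% of the 33469 promoter windows. The Ctss window held the spaced GAAA pair, found in 3.92% of windows, and the reverse strand of GAGGAA, found in 27.6%. The Ctsk window held GAGGAA on the reverse strand, and the Ctsz window held it on the forward strand. GGGCGG, found in 33.1% of windows, matched 3 times in the Ctsl window, 3 in the Ctsz window and 1 time each in those of Cst3 and Ctsd. It was the sole searched motif in the windows of Ctsl and Cst3, and TGANTCA, found in 7.33% of windows, matched none of the 6. A match of letters describes the window and is no evidence of binding. Ctsk and Ctss both lie on chromosome 2, with 2 other listed genes between them, although one was highest in osteoclasts and the other in macrophages.

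Ctsk, the collagenase of osteoclasts, stood at 60571 CPM in CIA osteoclasts (interval 60206 to 60937) and 42748 CPM in control osteoclasts (42185 to 43317). That was 78.7-fold above the next type in the CIA library and 49.8-fold above it in the control library. The median over single cells was 57077 CPM in CIA osteoclasts (quartiles 41215 to 81874) and 38299 CPM in control osteoclasts (12197 to 64019), so the cells of both libraries overlapped widely. Osteoclasts were 0.832% of CIA cells and 0.337% of control cells, but they held 67.3% of the Ctsk UMIs of the CIA library and 35.7% of those of the control library. The largest other share was in fibroblasts, with 18.7% in the CIA library and 42.3% in the control library.

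The Ctsk level went with the number of osteoclast markers that were on in a cell. In the CIA library it was 1127 CPM in cells with 2 markers on, 10303 CPM with 3, 53418 CPM with 4, 61881 CPM with 5 and 70558 CPM with 6 or 7. In the control library it was 1341, 8753, 26946, 58657 and 62596 CPM at the same steps. These are sums over cells, and below 4 markers few cells carried them. The median cell with 2 markers had 206 CPM in the CIA and 143 CPM in the control library, and with 3 markers 1634 and 2488 CPM, and 1 cell held 27.4% of the CIA and 43.3% of the control UMIs at 3 markers. The CIA-to-control ratio of Ctsk over all gated osteoclasts was 1.42 (1.40 to 1.44), below the 2-fold that the size rule asks for. The ratio was 1.07 when 5 markers were required, and the libraries lay furthest apart in cells with 4 markers, of which there were 27 in the CIA library and 10 in the control library.

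**Figure D2:**
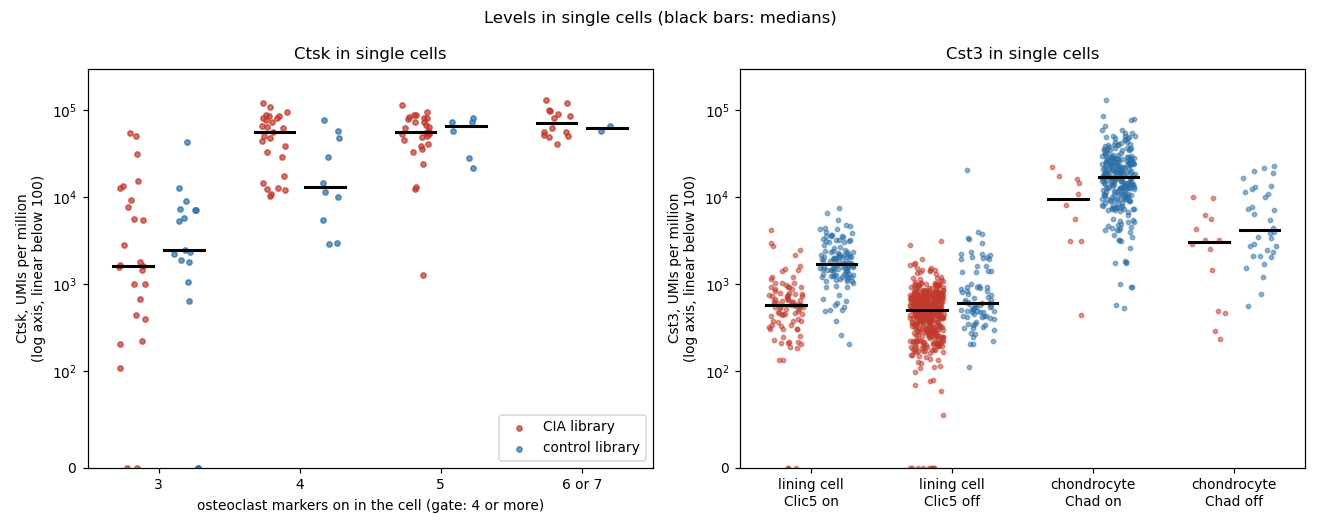
Left, Ctsk in single cells by the number of osteoclast markers on, and right, Cst3 in single lining cells and chondrocytes split by the markers Clic5 and Chad, each on a log axis in CPM that is linear below 100, with CIA (red) left of control (blue) and black bars for medians. In cells with 4 osteoclast markers the median Ctsk was 55347 CPM in the CIA library and 12927 CPM in the control library, and cells of both libraries overlapped in every group.

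Outside osteoclasts Ctsk was far lower and highest in fibroblasts, with 770 CPM in the CIA library and 859 CPM in the control library. Nearly every fibroblast carried a Ctsk UMI, 98.3% of CIA and 98.6% of control cells. In macrophages the level was 288 CPM in the CIA library and 285 CPM in the control library, and a UMI was seen in 64.4% of CIA and 60.0% of control cells. Endothelial cells, taken as a type with little cathepsin K of its own, had a UMI in 68.9% of CIA and 63.3% of control cells at 144 and 101 CPM. The macrophage shares were thus below the endothelial ones, while the macrophage levels were above them, so no order is read from either. Median depth was 9519 UMIs in CIA macrophages and 12799 in control macrophages, against 8862 and 11700 in endothelial cells. With every cell thinned to 4000 UMIs the macrophage shares were 41.5% in the CIA and 33.3% in the control library, and the endothelial shares 42.1% and 31.1%. In the control library 1 macrophage held 13.1% of the Ctsk UMIs of its type.

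Ctsz, a carboxypeptidase, was the second member with its peak in osteoclasts. It reached 4279 CPM (4182 to 4377) in CIA osteoclasts and 3790 CPM (3623 to 3962) in control osteoclasts, a ratio of 1.13 (1.07 to 1.19). Macrophages followed with 1285 CPM in the CIA library and 1222 CPM in the control library, a ratio of 1.05 (1.03 to 1.07). In fibroblasts, lining cells and chondrocytes Ctsz lay between 29.1 and 49.2 CPM, under the 108 CPM of CIA and 96.6 CPM of control endothelial cells and the 121 CPM of control B-lineage cells. The part of free RNA in these levels was not tested. Macrophages held 59.1% of all Ctsz UMIs in the CIA library and 57.6% in the control library.

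Ctss, the antigen-processing cathepsin of myeloid cells, was the member most concentrated in macrophages. It stood at 1097 CPM (1084 to 1109) in CIA macrophages and 924 CPM (907 to 941) in control macrophages, a ratio of 1.19 (1.16 to 1.21). Macrophages held 78.2% of the Ctss UMIs of the CIA library and 74.2% of those of the control library. The macrophage ratios set CIA cells most often of cluster 4 against control cells most often of cluster 5. Osteoclasts, which descend from the same lineage, had only 48.2 CPM in the CIA library and 89.5 CPM in the control library. Their ratio of 0.54 (0.37 to 0.79) did not pass the size rule and turned to 1.31 with 1 more marker required. Cells with 3 osteoclast markers had 292 CPM of Ctss in the CIA and 191 CPM in the control library, but 7 of these 26 CIA cells and 1 of these 17 control cells passed the macrophage gate. Among gated osteoclasts Ctss was 59.4 CPM with 4 markers, 40.3 CPM with 5 and 48.2 CPM with 6 or 7 in the CIA library, and 142, 34.6 and 27.2 CPM in the control library. Fibroblasts had 32.0 CPM in the CIA and 33.0 CPM in the control library, lining cells 25.8 and 14.3 CPM, chondrocytes 33.9 and 10.5 CPM, and endothelial cells 24.3 and 12.4 CPM. Control B-lineage cells had 36.1 CPM (19.8 to 60.6), and the part of free RNA in these low levels was not tested.

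Ctsb, an abundant lysosomal cysteine protease, was expressed in all 5 types. It was highest in macrophages, at 3731 CPM (3708 to 3754) in the CIA library and 3629 CPM (3596 to 3662) in the control library. Fibroblasts had 2890 and 2832 CPM, lining cells 1968 and 2417 CPM, chondrocytes 1240 and 949 CPM, and osteoclasts 1194 and 1337 CPM in the CIA and control libraries. In the CIA library the intervals of chondrocytes and osteoclasts overlapped, so their order is not given. The macrophage lead was smaller in single cells. The median macrophage had 2765 CPM in the CIA and 2714 CPM in the control library, and the median fibroblast 2696 and 2588 CPM. Macrophages with at least 2 C1q complement genes on had 5229 and 4666 CPM, and the others 3009 and 3036 CPM. Control B-lineage cells, the type with the lowest Ctsb among those with at least 20 cells, had 256 CPM. The CIA-to-control ratios ran from 0.81 (0.79 to 0.84) in lining cells to 1.31 (1.16 to 1.47) in chondrocytes.

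Ctsd, the aspartic protease that cystatin C does not inhibit, was highest in the myeloid types. Macrophages had 1571 CPM (1556 to 1586) in the CIA library and 1394 CPM (1374 to 1415) in the control library, and osteoclasts had 1170 and 1070 CPM. Over single cells the medians were 1151 and 992 CPM in macrophages and 1062 and 1030 CPM in osteoclasts. Stromal levels were lower, at 443 CPM in CIA and 410 CPM in control fibroblasts, 410 and 515 CPM in lining cells, and 423 and 278 CPM in chondrocytes. In the CIA library the counting interval of fibroblasts (436.5 to 449.9) lay above that of lining cells (397 to 424), while the chondrocyte interval (344 to 515) covered both levels. The single-cell medians were 404 CPM in CIA fibroblasts and 385 CPM in CIA lining cells, with overlapping quartiles. In the control library lining cells stood higher, so no order of these types is read. The largest ratio was 1.52 (1.22 to 1.87) in chondrocytes, from 100 CIA UMIs and 899 control UMIs.

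Ctsl, which degrades endocytosed protein and matrix, set lining cells apart. It stood at 2529 CPM (2495 to 2563) in CIA lining cells and 2398 CPM (2341 to 2456) in control lining cells, a ratio of 1.05 (1.03 to 1.08). The next type was fibroblasts in the CIA library, 2.12-fold lower, and macrophages in the control library, 2.34-fold lower. Fibroblasts had 1191 CPM in the CIA library and 923 CPM in the control library, a ratio of 1.29 (1.27 to 1.31). Osteoclasts were the lowest type, with 240 CPM in the CIA library and 187 CPM in the control library, and 1 control osteoclast held 32.3% of the control UMIs.

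Cst3, the secreted inhibitor, was the only member whose highest level lay in chondrocytes, in both libraries. CIA chondrocytes had 6368 CPM (6051 to 6698) and control chondrocytes had 18378 CPM (18230 to 18526). Osteoclasts followed with 3155 and 3356 CPM, macrophages with 2729 and 2775 CPM, fibroblasts with 801 and 1073 CPM, and lining cells with 564 and 1471 CPM in the CIA and control libraries. The last 2 types changed places between the libraries. Chondrocytes held 29.5% of all Cst3 UMIs of the control library and 0.961% of those of the CIA library, where macrophages held 47.0%. Control B-lineage cells had 426 CPM of Cst3 and control erythroid cells 133 CPM.

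The CIA-to-control ratio of most members was close to 1 in most types. A difference was counted when it was at least 2-fold with its interval wholly beyond 1.5-fold, among genes with at least 100 UMIs. None of 7 members met this rule in osteoclasts, where 1.47% of 2454 genes did (0.407% higher and 1.06% lower). None did in macrophages, where 4.35% of 9377 genes did (0.416% higher and 3.94% lower), or in fibroblasts, where 1.55% of 10951 genes did (0.329% higher and 1.22% lower). In lining cells 1 of 7 did, and it was lower in the CIA library (background 1.5% higher, 3.35% lower and 4.85% in either direction, of 7341 genes). In chondrocytes 6 members had enough UMIs, and 2 met the rule, 1 higher and 1 lower (background 3.5% higher, 5.19% lower and 8.69% in either direction, of 3429 genes). These counts were not tested against the background. The median log2 ratio of the members was 0.13 in osteoclasts, 0.07 in macrophages, 0.03 in fibroblasts, 0.08 in lining cells and 0.50 in chondrocytes, where Ctss was too low to be measured, beside 0.02, 0.11, 0.05, -0.07 and 0.16 for all genes measured.

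**Figure D3:**
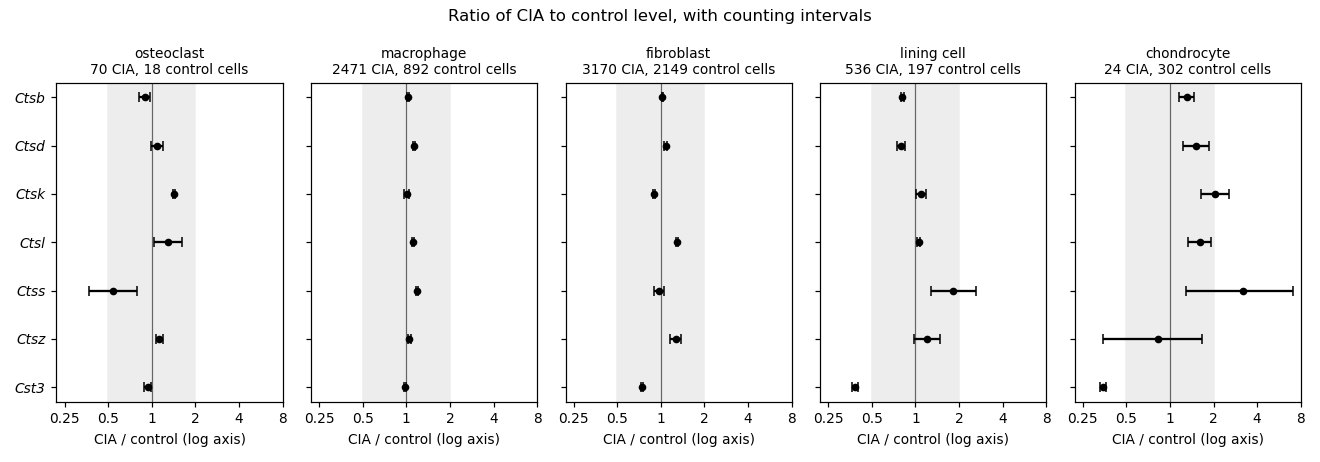
CIA-to-control ratio (log axis) of each member in each gated type, with bars for exact 95% counting intervals and a grey band from 0.5 to 2. Cst3 lay left of the band in lining cells (0.38) and chondrocytes (0.35), and Ctsk lay just right of it in chondrocytes (2.06). Ctss in chondrocytes lay further right, at 3.22 (1.29 to 7.08), but its 8 CIA and 34 control UMIs were below the UMI minimum.

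Cst3 was 2.61-fold lower (2.50 to 2.72) in CIA than in control lining cells, and 2.89-fold lower (2.74 to 3.04) in CIA than in control chondrocytes. The direction held in all 12 alternatives for both types. For lining cells, however, no alternative compared cells of the same cluster. The Leiden alternative pooled cluster 2 (889 CIA and 268 control cells) with cluster 14 (17 CIA and 148 control cells). In lining cells the median over cells was 514 CPM in the CIA library (quartiles 321 to 712) and 1397 CPM in the control library (607 to 2099). In chondrocytes it was 3732 CPM in the CIA library (2245 to 9781) and 15539 CPM in the control library (9012 to 24807). The single-cell plot shows that cells of the libraries overlapped in both types.

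The size of both differences depended on which cells were set side by side. Lining cells with Clic5, a lining marker, on had 653 CPM of Cst3 in the CIA library (93 cells) and 1960 CPM in the control library (116 cells), a ratio of 0.33. Those with Clic5 off had 545 CPM in the CIA library (443 cells) and 944 CPM in the control library (81 cells), a ratio of 0.58 that did not reach 2-fold. With 1 fewer marker required the lining ratio was 0.56 and no member met the rule. Chondrocytes with Chad on, a cartilage matrix gene, had 10358 CPM in the CIA library (10 cells) and 20918 CPM in the control library (268 cells), and those with Chad off had 4016 CPM (14 cells) and 8030 CPM (34 cells). The ratios were 0.50 in both, with the Chad-off gap just short of 2-fold. Both were closer to 1 than the 0.35 over all chondrocytes, of which 10 of 24 in the CIA library and 268 of 302 in the control library had Chad on.

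Markers of other types moved with these gates. The 14 fibroblast markers summed to 48797 CPM in CIA chondrocytes and 27638 CPM in control chondrocytes, with 2 markers at 0 in the CIA library and none in the control library. The 8 lining markers summed to 1930 CPM in CIA and 9666 CPM in control chondrocytes, with 4 at 0 in the CIA library and none in the control library. In lining cells the 14 fibroblast markers summed to 58370 CPM in the CIA library and 33481 CPM in the control library. The 8 lining markers summed there to 39978 CPM in the CIA library and 47217 CPM in the control library. The 15 chondrocyte markers summed to 104 CPM in CIA and 479 CPM in control lining cells, with 3 at 0 in the CIA library and 1 in the control library. The chondrocyte markers were also lower in the CIA library in other gates. They summed to 25.2 CPM in CIA and 266 CPM in control macrophages, and 27.5 and 249 CPM in osteoclasts. In endothelial cells they summed to 29.2 and 346 CPM, and in fibroblasts to 353 and 740 CPM. The part of these markers and of free RNA in the Cst3 differences was not tested.

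Ctsk was the member higher in CIA chondrocytes, with 410 CPM (333 to 501) in the CIA library and 200 CPM (184 to 216) in the control library, a ratio of 2.06 (1.64 to 2.55). This rested on 97 CIA UMIs, of which 1 cell held 20.6%. The call was lost without that cell (ratio 1.86), with TMM factors (1.63), without the 50 most abundant genes in the totals (1.89) and with 1 fewer marker required (1.90). Within cells with Chad on the ratio was 1.21 (0.68 to 1.98, from 16 CIA UMIs), and with Chad off 1.38 (1.06 to 1.78). Ctsk differed more with Chad than with the library, as cells with Chad off had 545 CPM in the CIA library and 396 CPM in the control library, and cells with Chad on had 183 and 151 CPM. Fibroblasts, whose markers were higher in the CIA gate, had 770 and 859 CPM. The part of cell make-up in the Ctsk difference was not tested.

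Cst3 was also lower in CIA fibroblasts by a smaller margin, with a ratio of 0.75 (0.73 to 0.76). The part of free RNA in this fibroblast difference was not tested. The ratio differed among fibroblast clusters, at 0.97 in cluster 0, 0.79 in cluster 1, 0.62 in cluster 2, 0.55 in cluster 3 and 0.80 in cluster 6. In macrophages the ratio was 0.98 (0.97 to 1.00) and in osteoclasts 0.94 (0.89 to 0.99), and these kept their direction in only 8 of 12 and 5 of 10 alternatives. Macrophages with at least 2 C1q complement genes on had more Cst3 than the others in both libraries, with 4776 CPM in the CIA and 4324 CPM in the control library, against 1743 and 1888 CPM. They also had more Ctsb, at 5229 and 4666 CPM against 3009 and 3036 CPM.

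The ratio of the UMIs of the 6 cathepsins to those of Cst3 ordered the types from osteoclasts to chondrocytes. The 6 include Ctsd, which cystatin C does not inhibit. Its share of the cathepsin UMIs ran from 1.73% in CIA osteoclasts to 17.3% in CIA macrophages. This ratio of all 6 cathepsins to Cst3 is described here. It was 21.4 in CIA and 14.7 in control osteoclasts, 9.37 and 3.85 in lining cells, 6.70 and 4.74 in fibroblasts, 3.34 and 3.06 in macrophages, and 0.425 and 0.0994 in chondrocytes. In the control library fibroblasts stood above lining cells. Chondrocytes were the only one of the 5 types in which Cst3 UMIs outnumbered those of the cathepsins, in both libraries. Endothelial cells also lay below 1, at 0.730 in the CIA and 0.614 in the control library. A ratio of UMIs also holds the capture of each gene, so it was compared between types and libraries and not read as a ratio of molecules or protein.

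**Figure D4:**
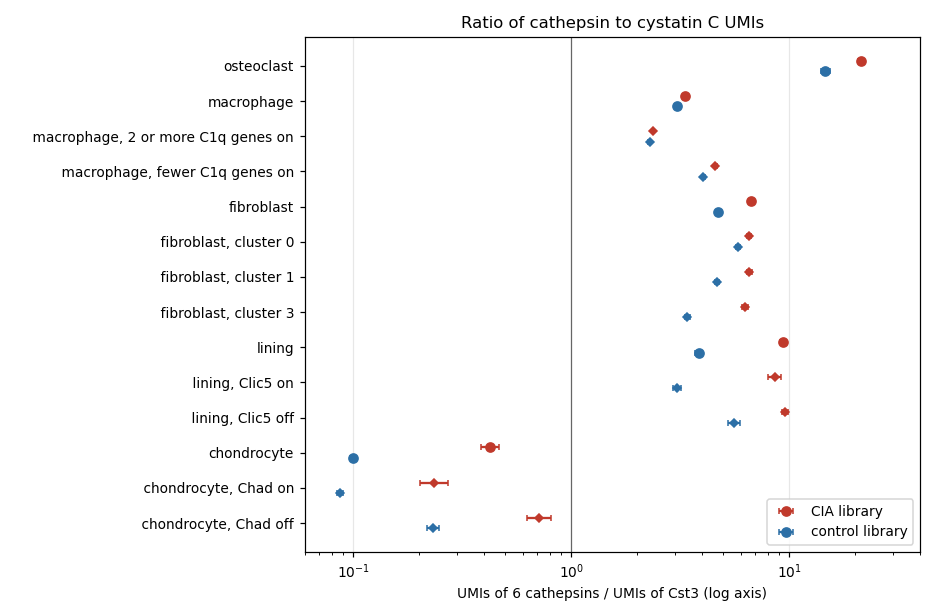
UMIs of the 6 cathepsins divided by UMIs of Cst3 (log axis) in each gated type (circles) and in subsets of it (diamonds), with CIA (red) above control (blue) and bars for exact 95% intervals. The CIA ratio was the higher one in every row, from 2.39 and 2.30 in macrophages with C1q genes on to 0.425 and 0.0994 in chondrocytes.

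In osteoclasts the ratio rested on Ctsk, which made up 89.7% of the cathepsin UMIs in the CIA library and 86.8% in the control library. Without Ctsk it was 2.20 in CIA and 1.93 in control osteoclasts, below that of macrophages at 3.23 and 2.95. In lining cells Ctsl alone gave 4.48 in the CIA library and 1.63 in the control library, and Ctsb gave 3.49 and 1.64. In fibroblasts Ctsb gave 3.61 and 2.64. Each cathepsin in chondrocytes lay under 0.2 per Cst3 UMI in both libraries, with Ctsb the highest at 0.195 in the CIA and 0.0516 in the control library.

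**Figure D5:**
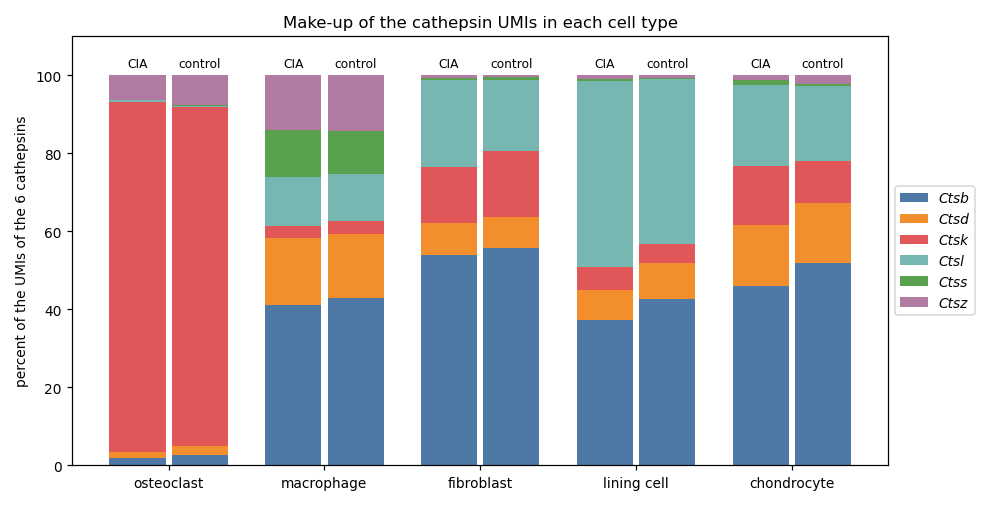
Share of the UMIs of the 6 cathepsins that came from each gene, in percent, with CIA left of control in each gated type. Ctsk filled 89.7% of the bar in CIA osteoclasts and 86.8% in control osteoclasts. Shares also hold the capture of each gene.

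The CIA ratio of cathepsins to Cst3 over the control ratio was 1.46 in osteoclasts, 1.09 in macrophages, 1.41 in fibroblasts, 2.43 in lining cells and 4.27 in chondrocytes. It stayed above 1 in all 9 osteoclast, 11 macrophage, 14 fibroblast, 11 lining and 11 chondrocyte alternatives. The lining alternatives did not compare cells of the same cluster. Numerator and denominator took unequal parts. In lining cells the summed cathepsins had a ratio of 0.93 and Cst3 one of 0.38, and in fibroblasts they had 1.05 and 0.75. In osteoclasts the cathepsins had 1.37 and Cst3 0.94, but these parts changed with the number of osteoclast markers on. The Ctsk ratio was 1.07 when 5 markers were required. Cst3 was 2946 CPM in the CIA and 2595 CPM in the control library in cells with 4 markers. It was 3076 and 4713 CPM with 5, and 3766 and 2919 CPM with 6 or more. The control library held 10, 6 and 2 cells at these steps. In chondrocytes both moved, with 1.48 for the cathepsins and 0.35 for Cst3. Within chondrocyte subsets the ratio of ratios was 2.72 with Chad on and 3.05 with Chad off, and within lining subsets 2.80 with Clic5 on and 1.71 with Clic5 off.

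Single cells showed the same order. The median ratio over cells was 20.6 in CIA osteoclasts (quartiles 15.0 to 33.5) and 11.8 in control osteoclasts (9.43 to 19.3). It was 0.643 in CIA chondrocytes (0.219 to 1.98) and 0.105 in control chondrocytes (0.0598 to 0.191). Cathepsin UMIs outnumbered Cst3 UMIs in 10 of 24 CIA chondrocytes (41.7%) and 17 of 302 control chondrocytes (5.63%).

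Other genes of the lysosome gave a setting for the members. Of the other cathepsins, Ctsh, an aminopeptidase, was highest in fibroblasts, at 1563 CPM in the CIA library and 1379 CPM in the control library. Cstb, the intracellular inhibitor cystatin B, followed the myeloid pattern that Cst3 did not, with 4322 CPM in CIA and 4245 CPM in control osteoclasts, 2289 and 2100 CPM in macrophages, and 355 and 252 CPM in chondrocytes. Lgmn, the protease legumain, was highest in macrophages, at 1374 CPM in the CIA and 1409 CPM in the control library. These 3 genes did not meet the size rule in any of the 5 types, and they are named here after their values had been seen.

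The pathway lists are given by how many measured genes met the size rule. In osteoclasts, against 1.47% of all genes, 0 of 21 lysosomal hydrolases, 0 of 15 subunits of the vacuolar ATPase, which acidifies the lysosome, and 0 of 6 regulators of cathepsin K did. In macrophages, against 4.35%, 0 of 22 hydrolases, 0 of 16 ATPase subunits and 1 of 6 regulators did. In fibroblasts, against 1.55%, 0 of 22 hydrolases, 0 of 16 ATPase subunits, 1 of 5 other cathepsins and 1 of 3 other cystatins did.

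More list genes met the rule in lining cells and chondrocytes, where more of all genes did. In lining cells, against 4.85%, 2 of 22 hydrolases (1 higher and 1 lower), 2 of 5 regulators of cathepsin K and 1 of 2 lysosomal transcription factors did, with Mitf in both of the last lists. The other lining lists held no called gene. They had 16 ATPase subunits, 11 lysosomal membrane genes, 10 sorting genes, 6 partners of cysteine proteases, 4 other cathepsins and 1 other cystatin. In chondrocytes, against 8.69%, 0 of 16 hydrolases, 2 of 4 other cathepsins, 1 of 5 sorting genes and 1 of 2 regulators did. No gene did among 13 ATPase subunits, 5 lysosomal membrane genes, 5 partners of cysteine proteases and 2 other cystatins. Median log2 ratios of hydrolases were 0.18 in osteoclasts, 0.21 in macrophages, 0.06 in fibroblasts, -0.13 in lining cells and 0.11 in chondrocytes, beside 0.02, 0.11, 0.05, -0.07 and 0.16 for all genes. Whether the lists differ from all genes was not tested.

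In macrophages Traf6, an adaptor of RANK signalling, stood at 13.5 CPM in the CIA library and 45.1 CPM in the control library, 3.33-fold lower (2.91 to 3.80). In fibroblasts Ctsg, a serine protease of granules, stood at 0.604 and 2.70 CPM, where the 4 granule progenitor markers summed to 1.47 CPM in the CIA and 7.35 CPM in the control library. Kng1, a kininogen with cystatin domains, stood at 4.21 and 2.04 CPM. In lining cells Lyz2, lysozyme, was 2.01-fold higher at 1796 CPM in the CIA and 893 CPM in the control library. Macrophages, its main source, had 79277 CPM of it in the CIA and 62405 CPM in the control library, and the part of free RNA in the lining difference was not tested. Asah1, acid ceramidase, was 2.07-fold lower at 97.6 and 202 CPM, and Mitf, a transcription factor of lysosomal genes, 2.15-fold lower at 47.7 and 103 CPM.

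Fos, a subunit of AP-1 and a regulator of osteoclast genes, was 3.71-fold lower in CIA lining cells, at 294 CPM in the CIA library and 1091 CPM in the control library. In chondrocytes it was 3.12-fold lower at 1299 and 4054 CPM, and 1 CIA cell held 56.7% of the CIA UMIs. Ctsf, a cysteine cathepsin, was 3.66-fold lower in CIA chondrocytes, with 5 UMIs in the CIA library and 250 in the control library. Igf2r, the receptor that sorts mannose 6-phosphate enzymes to the lysosome, was 2.84-fold higher (2.10 to 3.78), at 245 and 86.3 CPM. Ctsg had 0 UMIs in CIA chondrocytes and 397 in control chondrocytes, at least 9.68-fold lower against a floor of 3 counts over the CIA sum, but 1 control cell held 97.5% of them. The granule progenitor markers were all at 0 in CIA chondrocytes and summed to 181 CPM in control chondrocytes.

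The genes whose level followed each member most closely were found over 15 sums of a type and library with at least 20 cells. Osteoclasts entered through the CIA sum alone, as the 18 control osteoclasts were below this limit. The sums of a library share its free RNA, and both libraries of a type share its markers, so the correlations of log2(CPM + 10) are descriptions. Ctsd was closest to Psap, a precursor of sphingolipid activators, at a Pearson r of 0.96, then to Tpp1 (0.94) and Pld3 (0.93), and Ctsb was closest to Gabarap (0.96), Pld3 (0.92) and Rab32 (0.90). Ctsk was closest to the beta-galactosidase Glb1 (0.94), Tmem120a (0.94) and the exchanger Slc9b2 (0.93). The CIA osteoclast sum had by far the highest Ctsk level, and its weight in these correlations was not tested. Ctss was closest to the lipid receptor Trem2 (0.98), Aif1 (0.98) and Cd300le (0.97), and Ctsz to Csf1r (0.98), Gpr183 (0.97) and Clec4a (0.95); Aif1 and Csf1r were macrophage gate genes.

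Of the 3 genes named for Ctsk, Slc9b2 stood at 956 CPM in CIA and 881 CPM in control osteoclasts and no more than 6.62 CPM in the other 4 types. Control osteoclasts were not among the sums that were correlated. Ctsl was closest to Rin2 (0.92), Camk1 (0.90) and Mfsd5 (0.89). Cst3 had the loosest neighbours, Kank1 (0.88), Srebf1 (0.81) and Lmcd1 (0.79). Among the members themselves the highest values were 0.81 for Ctsb with Ctsd and 0.79 for Ctsb with Ctsl. Cst3 stayed between -0.02 and 0.27 with each of the 6 cathepsins.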

How the data were processed

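Raw counts were deposited: UMI counts per gene and cell, 1 matrix per library, made with the Chromium Single Cell 3' kit per the labels and the mRatBN7.2 build per the submitters' processing notes. The barcodes are 24 bases long, which is not the length that kit uses, so the platform is uncertain. The sources used here name no aligner, counter or cell caller. The lowest barcode total was 4365 UMIs in the CIA library and 5095 in the control library.

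Cells needed 200 genes or more, with mitochondrial UMIs not above 20%, which removed 47 CIA and 45 control cells, and Scrublet, run through scanpy 1.11.5, removed 166 and 62 doublets. A marker was on at 200 CPM or more, or at 20 times the higher library's 10th percentile where that was more. Gates needed 4 of 9 osteoclast, 4 of 12 macrophage, 4 of 14 fibroblast, 7 of 15 chondrocyte, or 3 of 8 lining markers with Prg4 on. Osteoclast came before macrophage, and chondrocyte before lining before fibroblast. Cells that passed other pairs of gates (48 CIA, 43 control) or no gate (1478 CIA, 1044 control) were left out of the 5 types. Gate limits were set after the data had been seen.

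UMIs were summed per gate and scaled to CPM over the genes that both libraries list. Levels carry exact Poisson, ratios exact conditional and shares Clopper-Pearson 95% intervals, for counting error only. In ratios per single cell, a cell without a Cst3 UMI was given a fixed small count in its place. Every gated osteoclast and chondrocyte had a Cst3 UMI. The size rule was a fold of 2 with the interval beyond 1.5, for genes with at least 100 UMIs. It was tried on simulated Poisson counts, which hold no variation between cells, animals or libraries. Named genes were the members, the 3 most correlated genes of each, and up to 3 called genes per list and direction. Members and lists were chosen with earlier results of these data known. Leiden clusters (resolution 0.5, without the members) and TMM factors (edgeR 4.0.16 in R 4.3.3) served as alternatives, as did other gates, filters and scalings; splits by C1q, Clic5, Chad and cluster, cathepsins without Ctsk and per-cell medians were added after seeing the data. Python 3.11.15, numpy 2.4.6, scipy 1.17.1, pandas 2.3.3 and matplotlib 3.10.9 were used.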

Additional observations from a re-analysis of the deposited data

How the results depend on the processing

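With 1 library per group, no alternative gives a replicate check, and the smallest gates held 18 control osteoclasts and 24 CIA chondrocytes. No paired analysis was possible because each group had 1 library. The log2 CIA-to-control ratio of cathepsins to Cst3 (0.54 in osteoclasts, 0.13 in macrophages, 0.50 in fibroblasts, 1.28 in lining cells and 2.09 in chondrocytes) kept its direction throughout, while its size moved beyond the counting interval in these settings, and the cause was not tested. With 1 more gate marker it was 0.45 in osteoclasts, 0.069 in macrophages, 1.47 in lining cells and 1.72 in chondrocytes, and with 1 fewer 0.20 in macrophages, 0.79 in lining cells and 2.28 in chondrocytes. With Leiden clusters it was 0.66 in fibroblasts and 2.32 in chondrocytes, and with a 10% mitochondrial limit 0.068 in macrophages. Without the cell with most UMIs it was 0.45 in osteoclasts and 2.24 in chondrocytes. The median over cells gave 0.81 in osteoclasts, 0.39 in fibroblasts and 2.62 in chondrocytes, and leaving out Ctsk gave 0.19 in osteoclasts and 0.54 in fibroblasts. Subsets gave 0.052 in macrophages with C1q genes on and 0.18 in the others, 1.49 in lining cells with Clic5 on and 0.77 with it off, 1.44 in chondrocytes with Chad on and 1.61 with it off, and 0.17, 0.70 and 0.88 in fibroblast clusters 0, 2 and 3. In lining cells no setting compared cells of the same cluster. The members called in chondrocytes fell to 1, from 2, with 1 fewer marker, without the top cell, with TMM factors and without the 50 most abundant genes, and those in lining cells to 0, from 1, with 1 fewer marker. Leiden clusters gave 3 in chondrocytes. Leaving out cycling cells, keeping doublets and dropping the UMI minimum left the called counts of lining cells and chondrocytes as they were. Small ratios turned direction most often, with Ctsk in macrophages keeping its own in 7 of 12 alternatives and Ctss in fibroblasts in 8 of 15. With a pseudocount of 1 the genes most like Ctss changed to Aif1, C1qb and RT1-Da, and Fuca1 replaced Rab32 for Ctsb, Csf2ra replaced Clec4a for Ctsz and Raph1 replaced Srebf1 for Cst3.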

Other observations

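Cell types outside the 5 gates also held the members. Pericytes and smooth muscle cells had 2912 CPM of Cst3 in the CIA library (36 cells) and 3431 CPM in the control library (21 cells), and endothelial cells had 2355 CPM (527 cells) and 2739 CPM (616 cells). In pericytes the ratio of the 6 cathepsins to Cst3 was 0.716 in the CIA and 0.435 in the control library, so both vascular types lay below 1, as chondrocytes did. Endothelial Ctsl stood at 573 CPM in the CIA and 572 CPM in the control library.

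Neutrophils (30 CIA and 12 control cells) and erythroid cells (19 and 15) held too few cells for a comparison. Of the Ctsb UMIs, 1 cell held 84.0% in control neutrophils and 67.0% in CIA erythroid cells. B-lineage cells passed the gate in the control library only, with 40 cells, and 0 of 8409 CIA cells did, which allows a share of up to 0.0439% of cells passing that gate (Clopper-Pearson upper bound). The Leiden cluster with B-lineage markers held 2 CIA and 92 control cells, of which the gate took 41.5%.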
